A study of Mus musculus with 9 samples.

Results

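The genes described here encode the proteins of the mitochondrial ribosome. They were chosen as all protein-coding genes of the GENCODE M1 annotation whose symbol starts with *Mrpl* or *Mrps* followed by a number, which gave 77 of the 22367 protein-coding genes on the nuclear chromosomes. The series mapped binding sites of BAP1, a nuclear deubiquitinase, by ChIP-Seq in Ba/F3, a murine precursor line of the B lineage that depends on IL-3. The deposited data are 1 joint list of 13164 peaks from 2 immunoprecipitations, that of WT Ba/F3 cells with the anti-BAP1 antibody (52.8 μg) and that of a Ba/F3 line with stable expression of triple-FLAG-tagged murine BAP1, kept under puromycin, with the anti-FLAG antibody (5 μg). The FLAG line makes tagged BAP1 beside the endogenous protein, and the list does not tell from which immunoprecipitation a peak came. Each immunoprecipitation was sequenced once and the depth is unknown, so no value here has a replicate error and none was tested. The 95% Wilson intervals given cover counting error over genes only, and genes are not replicates.

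Mitochondria translate the small set of respiratory chain subunits that their own genome encodes on a ribosome of bacterial descent. Its ribosomal RNAs come from mitochondrial DNA, whereas its proteins are encoded in the nucleus, made in the cytosol and imported. The small subunit reads the mRNA, the large subunit forms the peptide bond, and each has both proteins with a bacterial counterpart and proteins that arose in mitochondria. BAP1 removes ubiquitin from histone H2A as part of a nuclear complex, and a peak in the list places BAP1 on the chromatin of a gene, without a measure of how much.

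Of the 77 genes, 75 had a gene-proximal BAP1 peak, that is a 200 bp peak whose middle lay within 1 kb of a transcription start site (TSS) of the gene. The share was 97.4% (Wilson interval 91.0% to 99.3%), beside 39.6% of all protein-coding genes. Only *Mrpl24* and *Mrps36-ps1* had no such peak. All 26 genes of the small subunit had a peak (100%, interval 87.1% to 100%), as did 48 of 49 of the large subunit (98.0%, interval 89.3% to 99.6%). Among proteins with a bacterial homolog the count was 45 of 46 (97.8%), and among those classed as specific to mitochondria it was 29 of 29. These classes were set by hand. *Mrps18a* and *Mrps18b* were placed in the mitochondria-specific class, and *Mrps18c*, of the same number, among those with a bacterial homolog. A symbol does not always give the subunit: the products of *Mrps30* and *Mrps18a* sit in the large subunit and were counted there. The label fits 75 of the 77 genes. *Mrps36* encodes a component of the oxoglutarate dehydrogenase complex rather than a ribosomal protein, and *Mrps36-ps1* is named as a pseudogene although the annotation types it as protein-coding. Without both, 74 of 75 genes had a peak (98.7%, interval 92.8% to 99.8%).

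**Figure D1:**
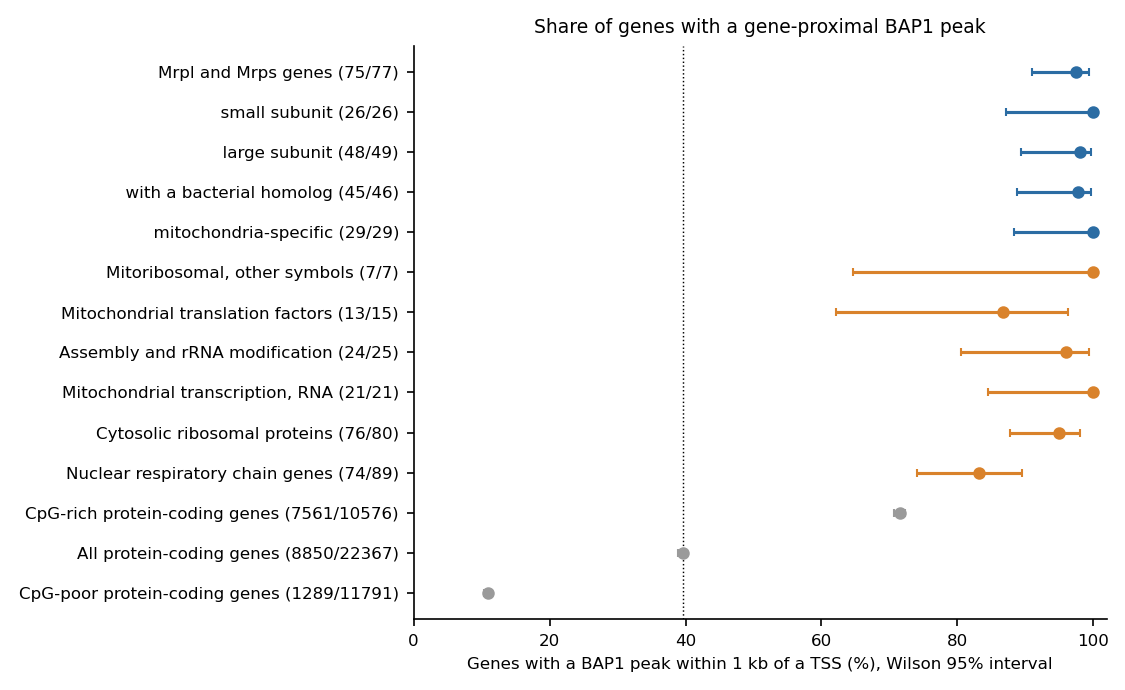
Share of genes with a BAP1 peak within 1 kb of a TSS (x axis, percent) for groups of genes (y axis, with counts). Points are shares, bars are Wilson 95% intervals that cover counting error only, and the dotted line is the 39.6% of all protein-coding genes. The *Mrpl* and *Mrps* genes lie at 97.4% and both subunits at 98.0% or above.

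The DNA under these peaks is shown for members with known roles, so that the letters counted further on can be seen in place. Each sequence is read from mouse build mm9 in the direction of the gene, 5′ to 3′. Capitals mark 3 short strings on either strand: CCGGAAG, recognised by ETS factors, ATGGCG, the core of the YY1 motif, and GGGCGGG, recognised by SP and KLF factors. On the other strand, ETS reads as CTTCCGG and the SP and KLF string as CCCGCCC, and the YY1 string of *Mrps7* is on that strand too. Stretches inside annotated exons are limited to 30 bases.
*Mrps35*, 94 bases upstream of the TSS under its peak, chr6:146991192-146991285, plus strand: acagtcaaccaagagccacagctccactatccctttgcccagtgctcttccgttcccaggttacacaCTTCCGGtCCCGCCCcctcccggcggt
*Mrps35*, around the start codon, chr6:146991305-146991334, plus strand: ccgtcctttatcATGGCGgccgccgcgctg
*Mrps30*, around the start codon, chr13:119176024-119176053, minus strand: cggcgggcgaaaATGGCGgcggccaggtat
*Mrpl4*, in the untranslated first exon, chr9:20807263-20807292, plus strand: gacctggcgctgATGGCGgcggaatcgcct
*Mrpl3*, at the TSS, chr9:104955568-104955597, plus strand: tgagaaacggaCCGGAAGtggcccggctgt
*Mrps12*, across the TSS, chr7:29526822-29526851, minus strand: taaggaggaaccCCGGAAGgggctggaggt
*Mrps18b*, 44 bases upstream of the TSS, chr17:36053335-36053378, minus strand: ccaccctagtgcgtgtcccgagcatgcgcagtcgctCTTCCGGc
*Mrps7*, upstream of the TSS, chr11:115465164-115465193, plus strand: cccttccgcctcCGCCATattgcagccgcc
*Mrps5*, 91 bases upstream of the TSS, chr2:127412867-127412957, plus strand: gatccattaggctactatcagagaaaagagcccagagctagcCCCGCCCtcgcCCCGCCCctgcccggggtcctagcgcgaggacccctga
*Mrpl12*, 114 bases upstream of the TSS, chr11:120345813-120345926, plus strand: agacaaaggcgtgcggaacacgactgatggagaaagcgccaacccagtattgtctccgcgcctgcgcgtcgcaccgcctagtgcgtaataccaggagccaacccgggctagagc
The *Mrps35* peak holds all 3 strings, and the *Mrpl12* stretch holds none of them.

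The peaks sat on the start sites. For the 75 genes with a peak, the middle of the nearest peak had a median position of -6 bp from the nearest TSS (quartiles -37 and 14 bp), where negative values are upstream. Across all 8850 protein-coding genes with a peak the median was -32 bp (quartiles -73 and -1 bp). The median distance regardless of side was 27 bp for the members and 46 bp for all. Each position was taken from the nearest of all annotated TSSs, and more TSSs can shorten this distance. Members had a median of 3 TSSs, beside 2 in all protein-coding genes with or without a peak. The middle lay upstream in 45 of 75 members (60.0%), beside 75% of all genes with a peak, and within 10 bp of the TSS in 20 members (26.7%), beside 14.8%. In 66 members the peak covered a TSS, which is 85.7% of the 77 beside 30.7% of all protein-coding genes, and 88.0% of the members with a peak beside 77.7% of all genes with a peak. Related groups, described further on, were alike in this. Among their genes with a peak it was 93.4% for cytosolic ribosomal proteins, 91.9% for the nuclear respiratory chain and 87.7% for other mitochondrial translation genes. Their median distances were 38, 31.5 and 27 bp. By the annotation, 38 of the nearest peak middles lay upstream of the gene, 31 in an untranslated exon, 3 in a coding exon and 3 in an intron.

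**Figure D2:**
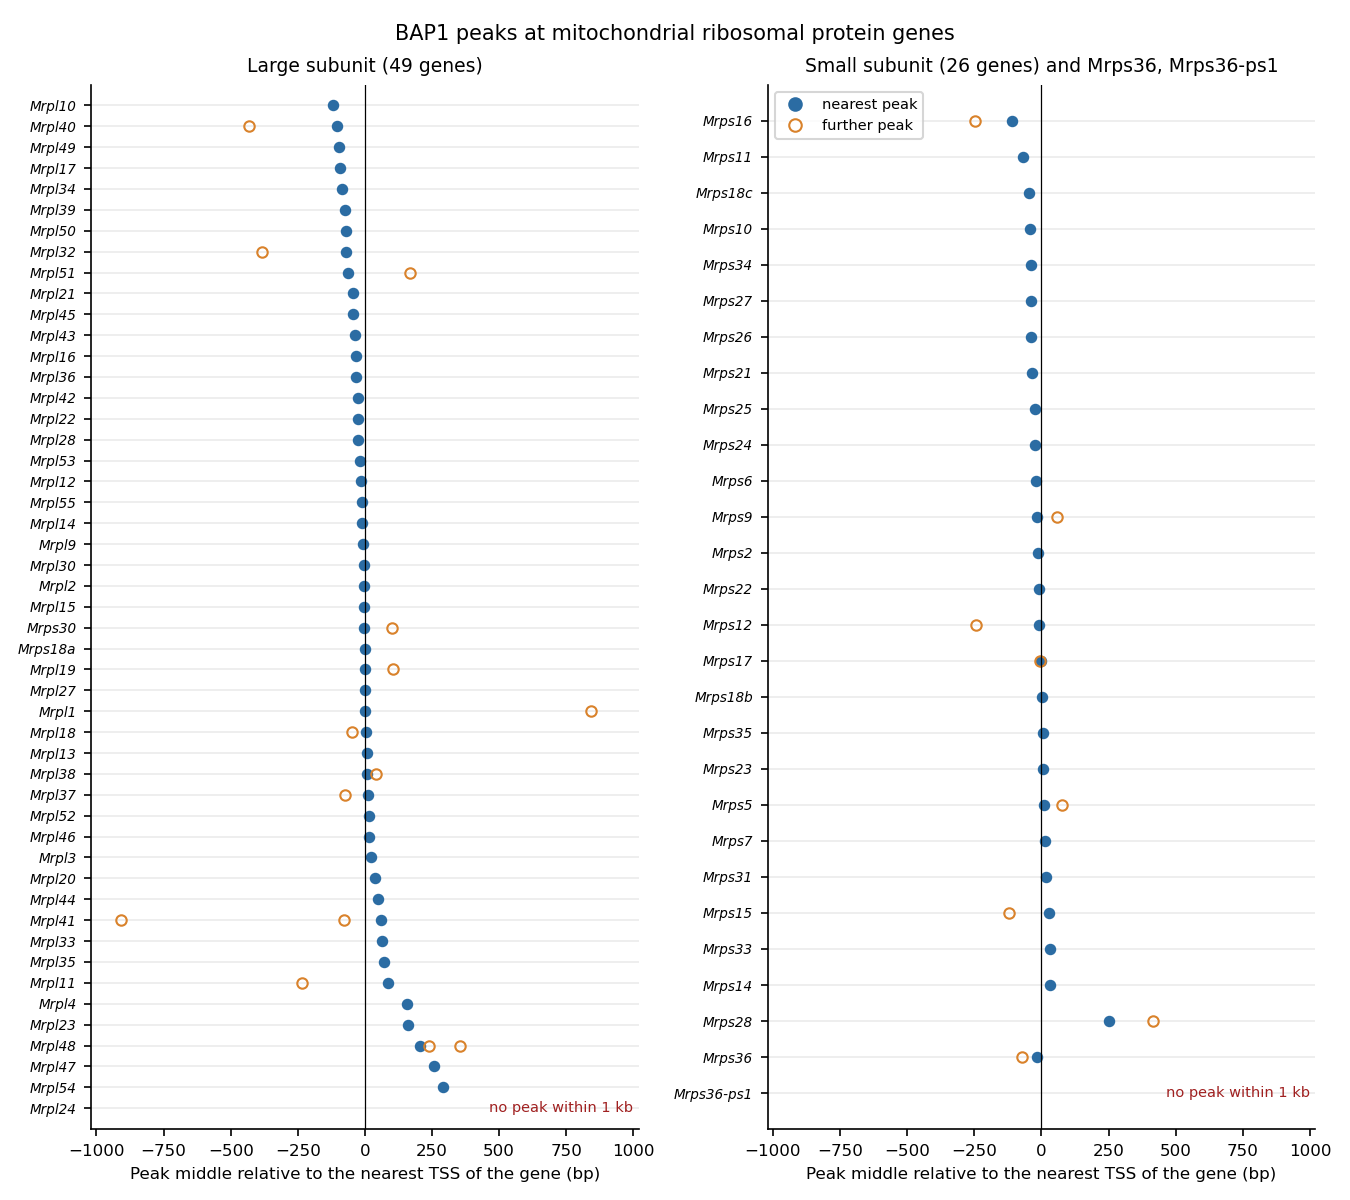
Position of every gene-proximal BAP1 peak of the 77 genes (x axis, bp from the nearest TSS of the gene, negative upstream), 1 gene per row (y axis). The large subunit is on the left. The small subunit is on the right, together with *Mrps36* and *Mrps36-ps1*, which belong to neither subunit. Filled circles are the nearest peaks, open circles the 22 further peaks. The nearest peaks run from -118 bp (*Mrpl10*) to 292 bp (*Mrpl54*), and *Mrpl24* and *Mrps36-ps1* have none.

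The genes of the small subunit show how tight this was. *Mrps12*, whose product lies at the decoding centre, had a peak 10 bp upstream of its TSS and a further one at -245 bp. *Mrps7*, which encodes a protein of the head of the subunit, had its peak at 14 bp. *Mrps5* had peaks at 9 and 75 bp, each from a different TSS. The peak of *Mrps18b* was centered at 1 bp and that of *Mrps35*, a protein specific to mitochondria, at 6 bp. All these peaks nearest to the TSS covered it. *Mrps17* (-3 bp), *Mrps23* (6 bp) and *Mrps22* (-10 bp) were also within 10 bp. The most upstream was *Mrps16*, with peaks at -110 and -247 bp. *Mrps28* was the exception in the small subunit, with peaks at 253 and 416 bp, in a coding exon and in an intron.

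In the large subunit, *Mrpl12*, which encodes the protein of the stalk that recruits translation factors, had its peak at -14 bp. *Mrpl11*, at the base of the stalk, had peaks at 87 and -236 bp. *Mrpl3*, whose product reaches toward the peptidyl transferase centre, had its peak at 21 bp and *Mrpl28* at -25 bp. *Mrpl44*, a protein with an RNase III fold that is specific to mitochondria, had its peak at 48 bp, which was also within 1 kb of the TSS of *Wdfy1*, and *Mrps30* had peaks at -3 and 101 bp. Peaks almost on the TSS were also found at *Mrpl19* and *Mrps18a* (both -1 bp) and at *Mrpl1* and *Mrpl27* (both 2 bp), and the most upstream was that of *Mrpl10* at -118 bp. In *Mrpl4* the peak was centered at 155 bp and did not reach the TSS. The 5 members with the most distant nearest peak were *Mrpl54* (292 bp), *Mrpl47* (259 bp), *Mrps28* (253 bp), *Mrpl48* (205 bp) and *Mrpl23* (160 bp), and in each of them the peak lay downstream. The median position was -5 bp in the large and -11 bp in the small subunit, with overlapping quartiles of -35.5 to 17.25 and -37.75 to 8.25 bp. *Mrps36*, which is not ribosomal, had peaks at -15 and -74 bp, each from a different TSS, and the second lay in an intron.

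No member lay near the edge of the 1 kb window. The most distant nearest peak within it was that of *Mrpl54* at 292 bp, and the closest peak of a member outside it was 8624 bp from *Mrpl24*. The share of genes whose nearest peak was more than 200 bp away was 5.33% of members with a peak and 10.5% of the other protein-coding genes with a peak. When only the TSS of the longest transcript was used, 73 members had a peak. The other 2 were *Mrpl33* and *Mrps24*, whose peaks lay 17140 and 7965 bp downstream of that TSS and within 65 and 25 bp of another annotated TSS.

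*Mrpl24* was the only gene of a ribosomal protein without a peak. It encodes a large subunit protein with a bacterial homolog and lies on chr3:87723428-87727594, plus strand, with 5 annotated TSSs. Its CpG ratio of 0.66 and GC content of 48.4% were within the range of the members with a peak. BAP1 peaks stood at its neighbors on both sides. Relative to the first TSS of *Mrpl24*, those of *Hdgf*, a growth factor gene, were at -13439 and -13260 bp, and that of *Isg20l2*, a nuclease gene, was at 10727 bp, 81 bp from the *Isg20l2* TSS. This last peak was also within 1 kb of the start of *Rrnad1*, which lies on the opposite strand at 11211 bp. The 200 bases before the first TSS of *Mrpl24*, chr3:87723228-87723427, held no ETS, YY1 or SP and KLF string. In 250 bp on either side of that TSS, 1 of the 10 strings listed further on was found. The capitals here mark a match to CTACANNTC, a loose form of the ZNF143 and THAP11 motif that was searched after this promoter had been seen. In the 250 bp on either side it had 2 matches.
*Mrpl24*: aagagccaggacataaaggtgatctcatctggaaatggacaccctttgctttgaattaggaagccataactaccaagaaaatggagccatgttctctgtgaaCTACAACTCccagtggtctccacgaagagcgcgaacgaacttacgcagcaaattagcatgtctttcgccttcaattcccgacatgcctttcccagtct
That loose string was under 5 of the 96 member peaks (5.21%), 4.53% of other gene-proximal peaks and 2.27% of promoters without a peak.

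*Mrps36-ps1* lies on chr17:54005742-54006366, minus strand, with 1 TSS. Its nearest peak was 177612 bp away, its CpG ratio was 0.283 and its GC content was 41.2%, all outside the range of the members with a peak. The 200 bases before its TSS, chr17:54006367-54006566, are shown for the contrast with the promoters above and hold none of the 3 strings.
*Mrps36-ps1*: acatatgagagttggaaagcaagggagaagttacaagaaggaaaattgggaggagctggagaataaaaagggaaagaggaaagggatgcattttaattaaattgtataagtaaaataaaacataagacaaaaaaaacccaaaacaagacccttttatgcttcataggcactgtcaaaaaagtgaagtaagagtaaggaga

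Members had 96 distinct peaks, 0.729% of the list. There were 55 members with 1 peak, 18 with 2 and 2 with 3. With 2 or more there were 20 (26% of the 77), beside 10.1% of all protein-coding genes. Among genes with a peak the shares were close, 26.7% of members and 25.5% of all. The 3 peaks of *Mrpl41* were at 60, -78 and -907 bp. Those of *Mrpl48* were at 205, 238 and 355 bp, each from a different TSS, in its introns. They started at positions 107731284, 107755814 and 107739485 of chromosome 7, so they were not close neighbors. *Mrpl41* and *Mrpl48* both encode large subunit proteins specific to mitochondria. The genes with 2 peaks were *Mrpl1*, *Mrpl11*, *Mrpl18*, *Mrpl19*, *Mrpl32*, *Mrpl37*, *Mrpl38*, *Mrpl40*, *Mrpl51*, *Mrps5*, *Mrps9*, *Mrps12*, *Mrps15*, *Mrps16*, *Mrps17*, *Mrps28*, *Mrps30* and *Mrps36*. Of the 22 further peaks, 12 were upstream and 10 downstream, at a median of 143.5 bp from a TSS. When peaks with edges within 500 bp were merged, 3 members kept more than 1, so most of these peaks were close neighbors.

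Promoters rich in CpG are the common type at housekeeping genes. The CpG ratio, observed over expected in 500 bp on either side of the TSS nearest to the peak, had a median of 0.73 in members and 0.569 in all protein-coding genes. It was at least 0.6 in 72 of 77 members (93.5%), beside 47.3% of all protein-coding genes. Of these members, 71 had a peak (98.6%), beside 71.5% of all CpG-rich protein-coding genes. Of the 5 members below 0.6, 4 had a peak, beside 10.9% of all CpG-poor genes. Those were *Mrps9* (0.505), *Mrpl35* (0.55), *Mrpl11* (0.591) and *Mrps18a* (0.596), of which the last 2 were just under the limit. All CpG-poor genes had a lower median ratio, 0.245, so the 10.9% is not a like comparison. Among protein-coding genes with ratios from 0.5 to 0.55, 270 had a peak and 471 had none. From 0.55 to 0.6, 422 had a peak and 530 had none. *Mrps30* had the highest ratio of the members, 1.05. Since the TSS nearest to the peak depends on the peak, the ratio was also taken at the 5′-most TSS of every gene. Then 66 of 67 CpG-rich members (98.5%) and 9 of 10 CpG-poor members (90.0%) had a peak, beside 70.5% and 13.7% of all protein-coding genes.

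**Figure D3:**
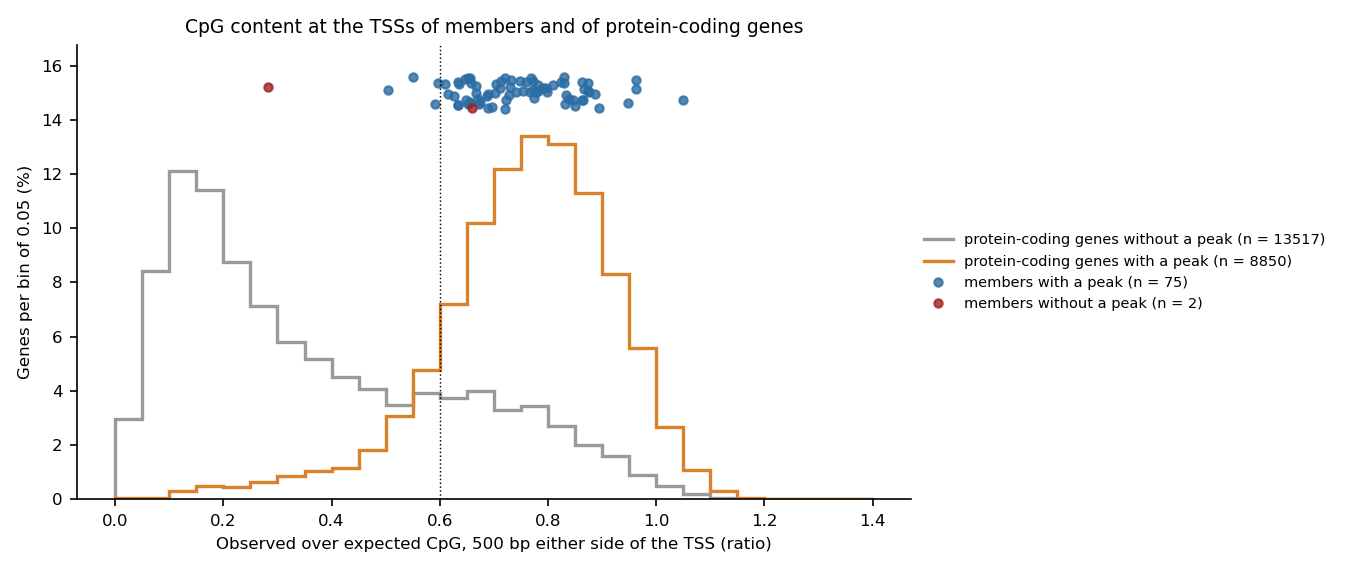
CpG ratio around the TSS (x axis, observed over expected) in protein-coding genes with and without a BAP1 peak (lines, percent of each class per bin of 0.05, y axis) and in the 77 members (points, spread vertically only to be visible). The dotted line marks the limit of 0.6. Members with a peak run from 0.505 to 1.05, and *Mrps36-ps1* lies apart at 0.283.

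Many of these genes share their promoter region with another gene. In 28 of 77 members (36.4%) a gene on the opposite strand started within 1 kb upstream, beside 13.9% of all protein-coding genes. In all 28 a BAP1 peak of the member was also within 1 kb of the TSS of that partner. Each of these members had a peak and most partners started close by, so this largely follows from the distances. Among all protein-coding genes with a partner the share was 76%. That share also counts genes without a peak, so it is not a like comparison. The share among genes with both a partner and a peak was not computed. Such a pair with a shared peak was found for 28 of all 77 members and 10.6% of all protein-coding genes. Counted only among genes with a peak, the shares were 37.3% of members and 26.8% of all. The list cannot say to which of both genes a shared peak belongs. The median distance between the start sites was 64.5 bp, from 3 bp (*Mrps21* and *C920021L13Rik*) to 935 bp (*Mrpl41* and *Pnpla7*). *Mrpl46* and *Mrps11*, 53 bp apart, are partners of each other, so that 1 peak stood for a protein of each subunit. In alphabetical order the first 8 pairs were *Mrpl10* with *Lrrc46* (153 bp), *Mrpl13* with *Mtbp* (59 bp), *Mrpl14* with *Tmem63b* (63 bp), *Mrpl18* with *Tcp1* (37 bp), *Mrpl21* with *Ighmbp2* (38 bp), *Mrpl27* with *Eme1* (47 bp), *Mrpl30* with *Mitd1* (66 bp) and *Mrpl32* with *Psma2* (217 bp). *Tcp1* encodes a subunit of the cytosolic chaperonin and *Psma2* a subunit of the proteasome. *Mrps12*, from the examples above, starts 171 bp from *Sars2*, which encodes the mitochondrial seryl-tRNA synthetase, *Mrps7* starts 32 bp from *Gga3* and *Mrps18b* starts 45 bp from *Ppp1r10*.

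The peaks of the members were then searched for 10 strings on both strands, and a match describes the letters and not a bound factor. The YY1 string ATGGCG was under 32 of 96 peaks (33.3%), beside 16.6% of the 9709 other gene-proximal peaks and 5.83% of 13517 promoters without a peak, taken as 200 bp around the 5′-most TSS. The ETS string CCGGAAG was under 31 (32.3%), beside 20.4% and 2.67%. The SP and KLF string GGGCGGG went the other way. It was under 30 member peaks (31.2%), beside 51.3% of other gene-proximal peaks and 17.3% of promoters without a peak. The NFY string CCAAT was at near equal shares, 28.1%, 30.0% and 25.8%. The NRF1 string GCATGCGC, the motif of a regulator of nuclear genes for mitochondrial proteins, was under 6 member peaks (6.25%), close to the 5.86% of other gene-proximal peaks. The strings of MYC (CACGTG), E2F (TTCCCGCC) and CREB (TGACGTCA) were under 4, 3 and 2 member peaks (4.17%, 3.12% and 2.08%), beside 8.14%, 3.56% and 3.36% of other gene-proximal peaks. Those of ZNF143 and THAP11 (CTACAATTC) and BANP (TCTCGCGA) were under 0, beside 0.484% and 2.22%. At least 1 of the 10 was under 79 peaks (82.3%), beside 84.1% of other gene-proximal peaks. The E2F string shares most of its letters with the reverse complement of GGGCGGG, so that both can match at the same bases. Some peaks of a member overlap, as at *Mrpl19*, *Mrpl38* and *Mrps30*, where the same ATGGCG counts under both peaks. The counts per gene that follow use the nearest peak only.

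**Figure D4:**
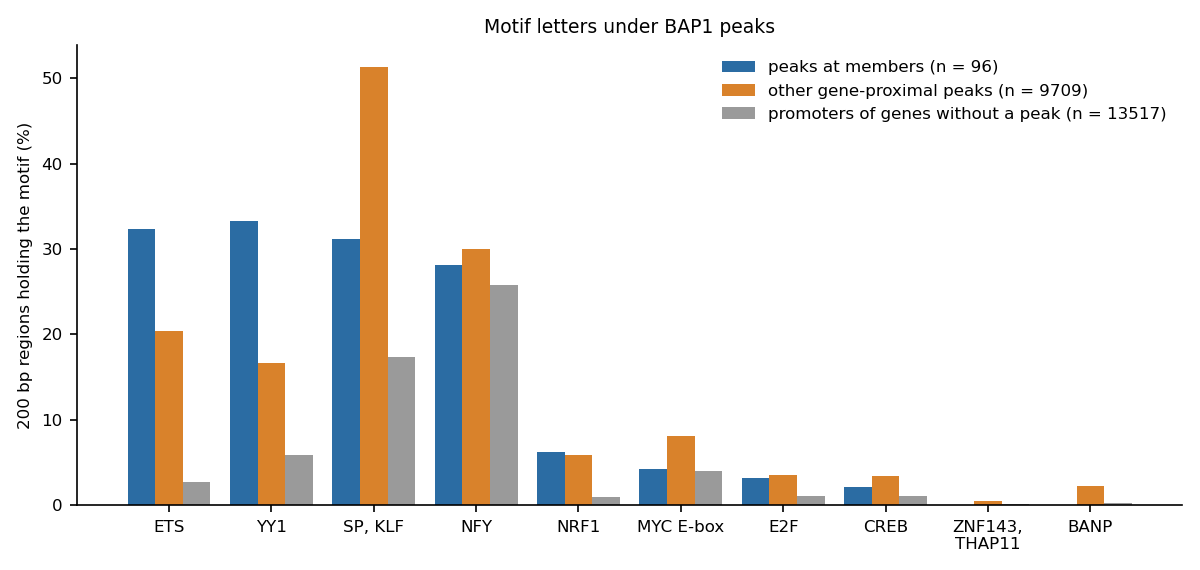
Share of 200 bp regions (y axis, percent) that hold each of 10 motif strings on either strand (x axis), for the 96 peaks at members, 9709 other gene-proximal peaks and 13517 promoters of genes without a peak. YY1 and ETS strings are more frequent in member peaks (33.3% and 32.3%) than in other gene-proximal peaks (16.6% and 20.4%), and the SP and KLF string is less frequent (31.2% and 51.3%).

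Per gene, 28 of the 75 members had the YY1 string under the nearest peak, 29 the ETS string and 26 the SP and KLF string, 13 had both the YY1 and the ETS string, and 56 had at least 1 of these 3. In the other 8775 genes with a peak the shares of genes were 17.5%, 22.9% and 52.3%, against 37.3%, 38.7% and 34.7% of members. None of the 10 strings was under the nearest peak of 9 members, among them *Mrpl11*, *Mrpl12* and *Mrpl44* of the examples above, and *Mrpl47*, *Mrpl48* and *Mrps28* with their peaks inside the gene. The ETS string was at a median of -2 bp (quartiles -29 and 45.5 bp), beside -22 bp in the other genes with a peak. *Mrps12* and *Mrps18b* above are examples near the start site. The SP and KLF string was at a median of -34 bp, beside -46 bp, as in the *Mrps5* and *Mrps35* promoters. Only letters under the peaks were searched, so these positions follow in part from where the peaks lie.

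The YY1 string had a different place. Its 30 matches under the nearest peaks of members were at a median of 31.5 bp downstream of the TSS, 25 of them on the strand of the gene (83.3%, beside 62.3% of the matches in other genes) and 24 downstream (80.0%, beside 58.0%). The string ATGGCG begins with the letters of a start codon and continues with a codon for alanine. In the annotation, 24 of the 30 matches were at a start codon (80.0%), beside 31.5% of the matches in other genes with a peak. In 21 of them this was the start codon of the member itself, as in *Mrps35* and *Mrps30* above. In the other 3 the match was on the opposite strand, at the start codon of the partner gene. These were *Mrps7*, shown above with the reverse complement CGCCAT 60 bp upstream of its TSS, *Mrps34* and *Mrps11*, and the last is the same site as that of *Mrpl46*. The match of *Mrpl4* was not at an annotated start codon.

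**Figure D5:**
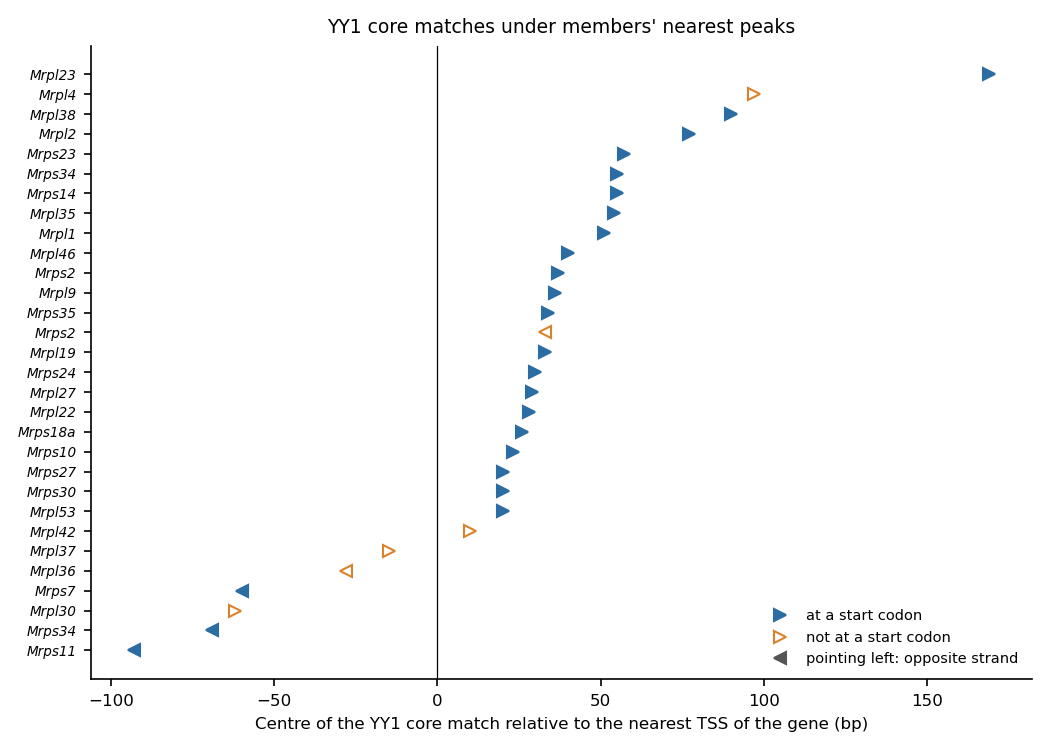
Position of the 30 matches of the YY1 core string under the nearest peaks of 28 members (x axis, bp from the nearest TSS of the gene), 1 match per row (y axis). Filled triangles are at an annotated start codon (24 matches), open triangles are not (6 matches), and triangles that point left are on the strand opposite to the gene. Most matches lie downstream of the TSS, with a median of 31.5 bp.

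The coding sequences of the members often begin with these letters. An annotated coding sequence that starts with ATGGCG was found in 27 of 77 members (35.1%), in 14.0% of the other protein-coding genes with a peak and in 7.91% of all other protein-coding genes with an annotated start codon. In 22 of the 27 (81.5%) that start codon was under a BAP1 peak, beside 40.5% of such start codons in other protein-coding genes with a peak and 18 of 24 in nuclear genes of the respiratory chain. The other 5 members were *Mrpl18*, *Mrpl45*, *Mrpl50*, *Mrpl54* and *Mrps28*. Whatever its next codon, a start codon was under a peak in 44 of 75 members with a peak (58.7%), beside 18.4% of other protein-coding genes with a peak. For each gene the smallest distance along the genome from any annotated TSS to a start codon downstream was taken. Its median was 33 bp in members and 98 bp in those other genes. More annotated TSSs can shorten this distance, and members had a median of 3, beside 2 in all other protein-coding genes. By its letters, a YY1 site cannot be told apart from a start codon followed by GCG. A longer form, AAGATGGCG, which was searched after these matches had been seen, was under 11 member peaks (11.5%), 3.71% of other gene-proximal peaks and 0.436% of promoters without a peak.

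The rest of the pathway was marked in a similar way. From lists of genes that act in mitochondrial translation, 65 of 68 genes in the annotation had a gene-proximal peak (95.6%, interval 87.8% to 98.5%). All 7 genes of ribosomal proteins under other symbols had a peak, among them *Dap3* at 10 bp. *Gadd45gip1* was the most distant of these at 879 bp. Of 15 genes for translation factors and related proteins, 13 had a peak, such as those of the elongation factors *Tufm* (53 bp), *Tsfm* (2 bp) and *Gfm1* (-48 bp). *Mtif3*, an initiation factor, and *Mtrf1*, a release factor, had none, with the nearest peak 15066 and 6997 bp away. Of 25 genes for assembly and rRNA modification, 24 had a peak, and *Gtpbp10*, a GTPase of large subunit assembly, was without one, 28618 bp from the nearest. All 21 genes for mitochondrial transcription and RNA handling had a peak. For comparison, 76 of 80 cytosolic ribosomal protein genes (95%, interval 87.8% to 98.0%) and 74 of 89 nuclear genes of the respiratory chain (83.1%, interval 74.0% to 89.5%) had a peak. The interval of the members overlaps that of the cytosolic ribosomal proteins and lies above that of the respiratory chain genes, a difference for which no test was made. Both comparison groups were taken by patterns in the gene symbols, not from a checked list. In the respiratory chain group 71 of 89 genes were CpG-rich, beside 72 of 77 members. Cytosolic ribosomal protein genes had their nearest peaks further upstream, at a median of -36 bp. The median was -16 bp in respiratory chain genes and -17 bp in the other genes of mitochondrial translation.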

How the data were processed

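The deposited list gives, per peak, 2 coordinates (start and end, in bp) on mouse build mm9, also named NCBIM37, and neither a score nor a p-value. The authors mapped reads with Bowtie 1.0.0 and found peaks with MACS 1.4.2, as the submitters' processing notes give it, against input DNA. Their threshold and the rule that joined both immunoprecipitations are not given in the sources used here, and another threshold would move every share. Depth is unknown. Of the 9 samples, 4 inputs and 3 H2AK119ub samples were not analysed here.

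Peak middles (start + 100 bp) were compared with all TSSs of GENCODE M1, on the same build, for 22367 genes. Shares have Wilson intervals (scipy 1.17.1, Python 3.11.15, numpy 2.4.6, pandas 2.3.3, pysam 0.24.0). Distances and motif searches were tested on simulated data. Alternatives were other windows, the peak edge, other TSS sets, merging and other motif spans. Subunits and lists were set by hand from general knowledge, and of 69 listed genes 68 were matched. Members and lists were chosen with earlier results of these data known.

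Genes were named by rule: members without a peak, with 2 or more, with the most distant nearest peaks, the first 8 with a divergent partner, and 13 examples. Other names were chosen after their values were seen.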

Additional observations from a re-analysis of the deposited data

How the results depend on the processing

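The count of 75 members with a peak was 75 with windows of 500 bp and 2 kb, with the peak edge and with TSSs of protein-coding transcripts, 72 with a window of 250 bp and 73 with 1 TSS per gene, while the share of all protein-coding genes ran from 36.4% to 40.4%. The counts for both subunits and for the other mitochondrial translation genes also stayed close. So did the median position (-10 to -5 bp) and the members with a divergent partner (26 to 28). Members whose peak covers a TSS went from 66 to 63 with TSSs of protein-coding transcripts and to 57 with 1 TSS per gene. Coverage and position in all protein-coding genes were not recomputed with these TSS sets, so the comparison with all genes was not tested for them. Members with more than 1 peak went from 20 to 3 when peaks with edges within 500 bp were merged. CpG-rich members went from 72 to 35 with a limit of 0.75, at which the share of all protein-coding genes was not computed. Peaks with any of the 10 strings were 61 in the middle 100 bp, 79 in 200 bp and 90 in 400 bp. For single strings, the middle 100 bp held the ETS string in 19 peaks and the YY1 string in 18, in place of 31 and 32. The SP and KLF string went from 30 to 46 peaks in 400 bp, NFY went from 27 to 16 in 100 bp and 42 in 400 bp, CREB from 2 to 1 and MYC from 4 to 2 in 100 bp, and E2F from 3 to 6 in 400 bp. The longer YY1 string, the loose ZNF143 and THAP11 string and the 5′-most TSS were added after seeing the data. No paired analysis was possible because all values come from 1 joint peak list without replicates. The unknown depth and threshold limit any statement on genes without a peak.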

Other observations

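Start codons followed by GCG were also frequent in the nuclear genes of the respiratory chain, where 24 of 87 genes with an annotated start codon began with ATGGCG (27.6%) and 18 of these start codons (75%) were under a BAP1 peak. In cytosolic ribosomal protein genes the count was 11 of 80 (13.8%), and in the other genes of mitochondrial translation it was 11 of 68 (16.2%). These shares stand beside 35.1% of the *Mrpl* and *Mrps* genes.

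Within 50 kb, 14 of the 77 genes (18.2%) had at least 1 peak that was more than 1 kb from every annotated TSS, beside 19.8% of all protein-coding genes and 26% of those with a gene-proximal peak. *Mrps18b* had 3, the nearest of which was 2683 bp away, *Mrpl21* had 3, the nearest at 34970 bp, and *Mrps36* had 1 at 5001 bp.

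The 3 genes annotated as pseudogenes of this family, *Mrpl23-ps1*, *Mrpl48-ps* and *Mrps36-ps2*, had no gene-proximal peak, with the nearest at 8188, 122638 and 19731 bp. The share of all annotated pseudogenes with such a peak was not computed, so this absence cannot be read as particular to these genes.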
